A study of Homo sapiens with 4 samples.

Results

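The genes described here encode the proteasome: the subunits of its 20S core and 19S cap, its activators and inhibitor, and the chaperones that assemble it. Members were the genes whose single symbol in the platform annotation is PSMA, PSMB, PSMC, PSMD, PSME, PSMF or PSMG followed by digits only, and each gene was represented by its brightest probe set, the one with the highest mean log2 signal over the 4 arrays. This gave 42 genes of 19775, with 81 probe sets between them. The series compared U937 cells, a human myelomonocytic line from a histiocytic lymphoma, that carried a short hairpin against PIR in the lentiviral vector pSICO-R with U937 cells that carried the empty vector. Its product, pirin, is a nuclear protein that binds iron. Each condition was 1 RNA pool made from 3 extractions and hybridised to 2 Affymetrix HG-U133 Plus 2.0 arrays, so 4 arrays were read. The knock-down rests on 1 hairpin. The sources used here do not say whether either line came from 1 clone.

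The proteasome breaks down proteins that carry ubiquitin chains. Its 20S core is a barrel of alpha and beta rings, and the cutting sites belong to the beta subunits PSMB5, PSMB6 and PSMB7. Under interferon-gamma, and constitutively in many leukocytes, newly built cores take PSMB8, PSMB9 and PSMB10 in the places of PSMB5, PSMB6 and PSMB7. The resulting immunoproteasome, often with the PA28 activator made of PSME1 and PSME2, cuts peptides that fit MHC class I molecules. The 19S cap binds ubiquitin chains, removes them and unfolds the substrate with a ring of ATPases.

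The inducible catalytic subunits PSMB8, PSMB9 and PSMB10 were higher in the knock-down pool by the 1.2-fold rule defined below, and PSME1, the other measured immunoproteasome gene, did not meet it (0.22 on the log2 scale). These 3 were the only higher members, against 25.9% of all measured genes (7 members, against 37.6%, when arrays were scaled to a common median). Of the 41 measured members 10 were lower, against 17.7% of all measured genes (5, against 10.8%, when arrays were scaled to a common median). These 10 were subunits of the core and cap and assembly chaperones. On the log2 scale the difference between the pools had a median of 0.34 over the 4 measured immunoproteasome genes and of -0.042 over the 37 other measured members, the second of which became 0.085 when arrays were scaled to a common median. PSMB9 stood farthest out, at 1.98-fold higher. On the brightest probe sets, with all arrays, the lowest members were PSMD10, PSMD12, PSMC3, PSMG3 and PSMD1, which were between 1.40-fold and 1.49-fold lower. No member reached the 2-fold limit used below, which 3.51% of all measured genes met in 1 direction or the other.

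Differences are given as knock-down minus empty vector in log2(signal + 18.4), with a pseudocount of 18.4, the 25th percentile of signal averaged over the arrays. Measured genes are those for which, in 1 pool or in both, each array reached its own 60th percentile of signal. By this limit 41 of the 42 members were measured. The exception was PSMA8, an alpha subunit of germ cells, whose signals ran from 5.20 to 32.9 over the 4 arrays. The 1.2-fold rule asked that the difference reach 1.2-fold (0.26 on the log2 scale), all 4 array-by-array differences have that sign, and both arrays of the higher pool reach the limit. The 2-fold rule asked in addition that the array-by-array differences be at least 0.5. Because both arrays of a pool read the same RNA, SDs and ranges over arrays show hybridisation error alone, and the design allows no test of the condition. In such pools a lower share of cells that express a gene and less RNA of it per cell cannot be told apart.

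PIR itself read 83.4 and 91.5 in the knock-down pool against 1813 and 1882 in the empty-vector pool, and the series design text reports that Western blotting showed no remaining PIR protein. Over 10288 measured genes the median SD between the arrays of a pool was 0.073 for the knock-down and 0.060 for the empty vector, and the median difference was 0.046. Of the myelomonocytic markers SPI1, PTPRC, LYZ, ELANE, ANPEP, CSF1R, CD4, FCGR2A, CYBB, ITGB2 and MPO, 10 of 11 were measured and MPO, at 16.9 to 52.7, was not. By the 1.2-fold rule 8 of the 10 were higher in the knock-down, against 25.9% of all measured genes. ANPEP stood at 1.03, CYBB at 1.00, CD4 at 0.84 and PTPRC at 0.69. These differences were as large as or larger than those of most immunoproteasome genes. The summed signal of the 11 was 82964 to 88775 on the knock-down arrays and 67235 to 69316 on the empty-vector arrays, and the part of these differences in the results below was not tested. None of 3 T cell, 1 erythroid and 3 epithelial markers was measured. CD79A of the B cell list and COL1A1 of the fibroblast list were dim (at most 369.3 and 222.6). PECAM1 of the endothelial list, which monocytes also express, read 5787 and 6021 in the knock-down pool against 3432 and 3519.5. The 3' to 5' signal ratio ran from 0.959 to 1.02 for GAPDH and from 1.17 to 1.18 for ACTB, with no separation of the pools.

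Sequence upstream is shown for PSMB9 and PSMB10, which were higher, for PSME1, and for TAP1, which shares the upstream region of PSMB9 and was lower. PSMB9 and TAP1, a subunit of the peptide transporter, lie head to head on chromosome 6, with PSMB8 next to TAP1 on its other side. In RefSeq annotation of GRCh38.p14 the start sites of PSMB9 and TAP1, taking the outer of 2 for TAP1, are 488 bases apart. Each window below holds the 250 bases before the start site, 5′ to 3′ on the gene's own strand, and capitals mark matches to any of the 4 motifs named after them. The windows are chr6:32853942-32854191 (+) for PSMB9, chr6:32853705-32853954 (-) for TAP1, chr16:67936851-67937100 (-) for PSMB10 and chr14:24135944-24136193 (+) for PSME1.
PSMB9: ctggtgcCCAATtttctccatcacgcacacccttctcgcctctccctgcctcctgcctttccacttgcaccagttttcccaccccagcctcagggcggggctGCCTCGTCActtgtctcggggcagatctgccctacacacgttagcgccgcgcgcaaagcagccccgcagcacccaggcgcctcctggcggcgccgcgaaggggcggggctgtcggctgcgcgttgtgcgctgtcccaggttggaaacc
TAP1: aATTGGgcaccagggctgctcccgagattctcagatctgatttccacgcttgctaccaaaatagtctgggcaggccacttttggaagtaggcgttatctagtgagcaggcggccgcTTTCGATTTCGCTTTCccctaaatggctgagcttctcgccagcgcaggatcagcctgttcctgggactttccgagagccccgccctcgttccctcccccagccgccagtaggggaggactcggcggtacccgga
PSMB10: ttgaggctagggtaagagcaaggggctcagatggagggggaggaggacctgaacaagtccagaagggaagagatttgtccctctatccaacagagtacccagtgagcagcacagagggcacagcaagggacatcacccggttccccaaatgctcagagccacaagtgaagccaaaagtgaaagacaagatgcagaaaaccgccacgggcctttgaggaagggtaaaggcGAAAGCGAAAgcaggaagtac
PSME1: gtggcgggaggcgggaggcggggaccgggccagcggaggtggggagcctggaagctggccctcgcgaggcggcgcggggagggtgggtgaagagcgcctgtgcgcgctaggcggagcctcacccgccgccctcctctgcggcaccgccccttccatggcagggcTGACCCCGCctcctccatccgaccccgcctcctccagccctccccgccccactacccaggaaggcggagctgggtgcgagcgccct

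Motifs were sought on both strands in RefSeq windows of 300 bases, from 250 before to 50 after each start, which existed for 36 of the 42 members, some of them with more than 1 start site. A member was counted when any of its windows, 43 over all members, held a match, while the shares given beside the counts are of single windows. Counts and shares are therefore not on a common scale. The core of the interferon-stimulated response element, a pair of GAAA with any 2 bases between them, was in 6 of the 36, among them PSMB8, PSMB10 and PSME1 but not PSMB9, and in 3.57% of all 35116 windows. In PSMB10 the match began 21 bases before the start, in PSME1 it began at base 6 after it, beyond the bases printed, and in PSMB8 it crossed the inner of 2 annotated starts. The TAP1 window held a pair of overlapping matches, whose first bases on that strand lie 354 and 360 bases before the PSMB9 start and thus outside the PSMB9 window. The gamma-activated site, TTCNNNGAA, was in 8 members, with PSMB8 as the only one of the 4 immunoproteasome members, and in 7.66% of all windows. The antioxidant response element core, TGACNNNGC, was in 13 members, among them PSMB9 and PSME1, and in 13.3% of all windows. The CCAAT box was in 17 members and 34.6% of all windows. Among the 9 members with a window that were lower by the 1.2-fold rule, these 4 motifs were in 1, 2, 2 and 4. A match of letters is a description and does not show binding.

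By the 1.2-fold rule 3 members were higher, against 25.9% of all measured genes, and 10 were lower, against 17.7%; 28 met it in neither direction. All 3 higher members were immunoproteasome genes, and all 10 lower members belonged to the other 37. Over the 41 measured members 19 differences were positive and 22 negative, and the median was -0.0053, whose sign changed with single arrays. For comparison, the 3528 measured genes within the members' range of mean log2 signal had a median of 0.0015, and 19.2% of them were higher and 18.2% lower by the same rule. When each array was instead scaled to a common median, the difference of all measured genes moved up by 0.12 to a median of 0.17. Under that scaling 7 members were higher and 5 lower, against 37.6% and 10.8% of all measured genes. PSMB1, PSMB4, PSMD14 and PSME1 joined the higher ones, and PSMA5, PSMB5, PSMC6, PSMD2 and PSMG4 no longer met the rule. With median scaling the share of higher genes among all that met the rule went from 59.3% to 77.7%. Relative to the median of all measured genes, the immunoproteasome median was 0.30 in the authors' scaling and 0.30 in median scaling, and that of the other members was -0.087 and -0.084. A constant factor per array moves all genes alike apart from the pseudocount, so this likeness follows from the scaling itself.

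**Figure D1:**
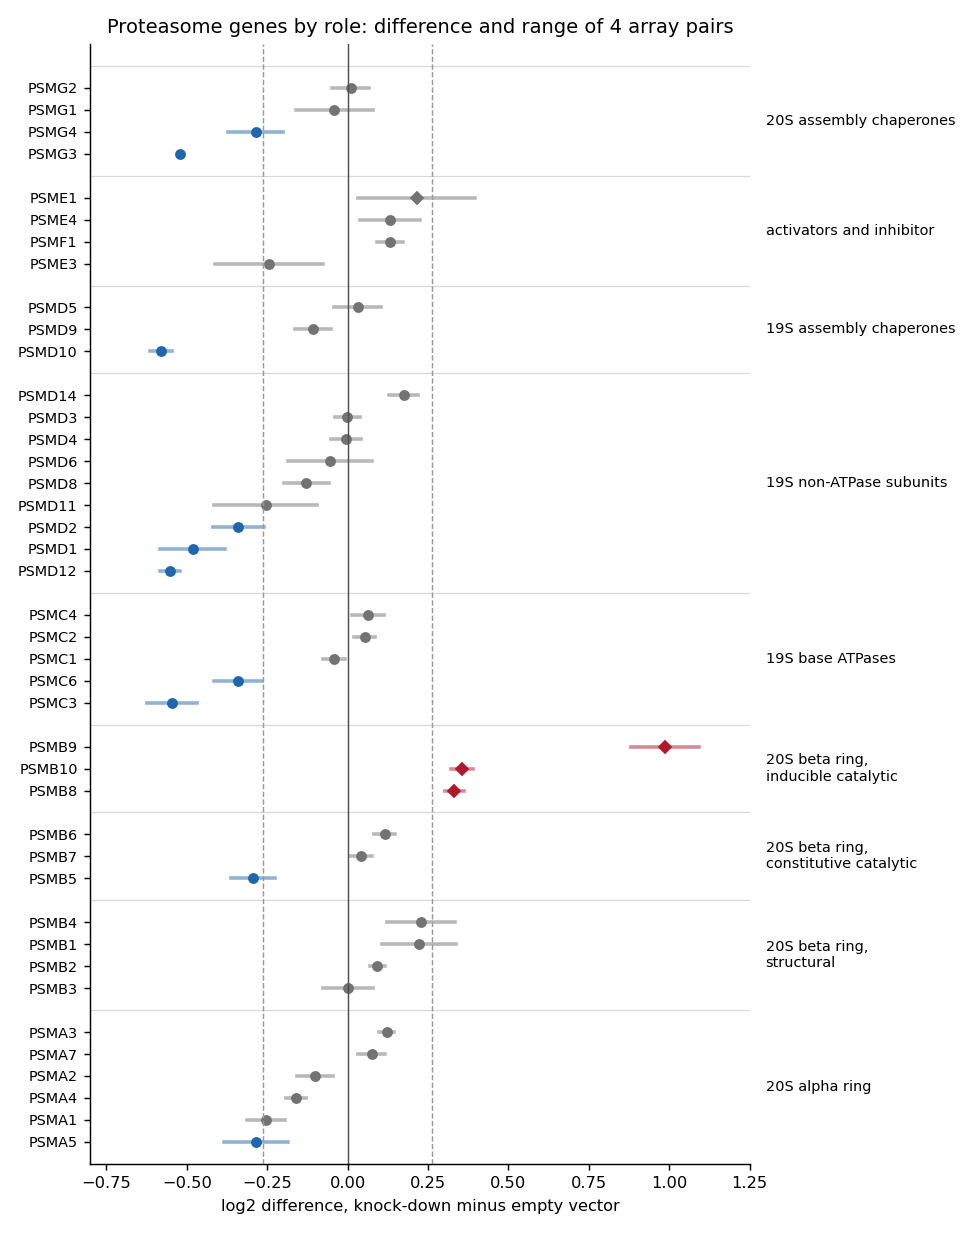
Log2 difference (knock-down minus empty vector) of the 41 measured members by role; points are pool differences, bars span the 4 array-by-array differences, diamonds mark immunoproteasome genes, and dashed lines mark 1.2-fold. Red points (3 genes) were higher and blue points (10 genes) lower by the 1.2-fold rule; PSMB9 lies at 0.99 and PSMD10 at -0.58.

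Among the inducible catalytic subunits, PSMB9 (beta 1i, probe set 204279_at) read 2706 and 2425 in the knock-down pool against 1259 and 1308 in the empty-vector pool. Values are given in this order throughout. Both knock-down signals lay far above both empty-vector signals. The difference was 0.99, with array-by-array values from 0.88 to 1.09, just under the 2-fold limit. Leaving out replica 2 of the knock-down gave 1.07 and leaving out replica 2 of the empty vector gave 1.01, and PSMB9 then met the 2-fold rule. PSMB8 (beta 5i, 209040_s_at), whose product has chymotrypsin-like activity, read 6654 and 6386 against 5178.5 and 5170.1. Its difference was 0.33 (1.26-fold), between 0.30 and 0.36 over array pairs. PSMB10 (beta 2i, 202659_at) read 2294 and 2404 against 1833 and 1829.8. This was a difference of 0.36 (1.28-fold), from 0.32 to 0.39. In all 3 genes the arrays of the pools did not overlap, and each gene has 1 probe set.

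PSME1 (200814_at), the alpha subunit of the PA28 activator, read 4759 and 4073 against 3979.5 and 3609. The arrays were separate but close, and the difference of 0.22 did not meet the 1.2-fold rule. It met the rule when replica 2 of the knock-down (0.33) or replica 1 of the empty vector (0.29) was left out, and was 0.10 without replica 1 of the knock-down. PSME2, its partner and the fifth immunoproteasome gene, is represented by a probe set that also names a microRNA gene, so it was not analysed here.

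Of the constitutive subunits that take the same places, 1 was lower and the other two did not meet the rule. PSMB5 (beta 5, 208799_at) was lower, with signals of 4266 and 3889.6 against 5002 and 4991. Its difference was -0.29 (1.23-fold lower), from -0.36 to -0.23, and it missed the rule without knock-down replica 2 (-0.23) and under median scaling (-0.17). PSMB6 (beta 1, 208827_at), with caspase-like activity, read 5194 and 5169 against 4879 and 4685, a difference of 0.12. PSMB7 (beta 2, 200786_at), with trypsin-like activity, read 12897 and 13075 against 12413 and 12797, a difference of 0.043. Neither met the 1.2-fold rule, although in both the knock-down arrays were the higher ones.

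The difference of each inducible subunit was larger than that of its constitutive counterpart in all 4 array pairs. For PSMB9 the difference exceeded that of PSMB6 by 0.87 on the log2 scale, with a range of 0.74 to 1.00. For PSMB8 against PSMB5 the excess was 0.63, from 0.59 to 0.66, to which the lower PSMB5 signal contributed. For PSMB10 against PSMB7 it was 0.31, from 0.27 to 0.36. These values set differences against each other and not levels, since signals of different probe sets have no common scale. A constant factor applied to a whole array cancels in them apart from the pseudocount: under median scaling they were 0.87, 0.63 and 0.31. Over whole groups, the immunoproteasome median exceeded that of the other members by 0.39, with 0.38 to 0.43 over array pairs.

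**Figure D2:**
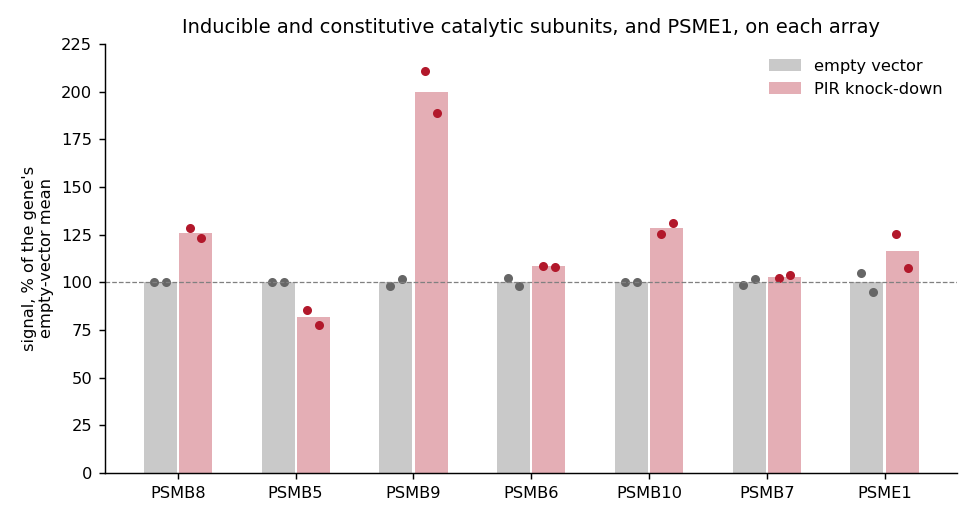
Signal on each array as a percentage of the gene's own mean on the empty-vector arrays, for the inducible subunits PSMB8, PSMB9 and PSMB10, each beside its constitutive counterpart, and for PSME1; points are arrays and bars the means of 2 arrays. The knock-down arrays of PSMB9 lie at 211% and 189%, those of PSMB5 at 85.4% and 77.8%.

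The structural beta subunits were all on the positive side or at 0, and none of the 4 met the 1.2-fold rule. PSMB4 (202244_at) had the largest difference, 0.23, from signals of 14686 and 14110.2 against 11652 and 12945. PSMB1 followed at 0.22 and PSMB2 at 0.092, with the arrays of the pools separate in each. PSMB3 read 12113.5 and 11350.5 against 11472 and 11958, which overlap, and differed by 0.0017. Leaving out knock-down replica 1 brought PSMB1 to 0.33 and leaving out empty-vector replica 2 brought PSMB4 to 0.30, past the rule in both cases.

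Of the 6 measured alpha subunits, which form the outer rings and the gate of the core, 4 had negative and 2 positive differences, with a median of -0.13 (-0.0043 under median scaling). On the brightest probe sets PSMA5 (201274_at) alone met the rule, as lower, with 5978 and 5409 against 6805 and 7068. Its difference was -0.29 (1.22-fold lower). It missed the rule when replica 2 was left out of the knock-down (-0.21) or of the empty vector (-0.26). PSMA1 (-0.25) lay just outside the limit and met it when replica 2 was left out of the knock-down (-0.29) or of the empty vector (-0.28). PSMA4 had -0.16 and PSMA2 -0.10, while the second probe set of PSMA2 gave -0.35. PSMA3 was at the other end, with 13403 and 13836 against 12512 and 12522, a difference of 0.12. PSMA7 had 0.074, but its second probe set gave -0.19. PSMA6 was not analysed here, because its probe sets name a second gene too.

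Among the ATPases at the base of the 19S cap, which thread substrates into the core, PSMC3 (201267_s_at) and PSMC6 (201699_at) were lower. PSMC3 read 4073.5 and 3727 against 5645 and 5753, a difference of -0.55 (1.46-fold lower) with no overlap. PSMC6 read 5718 and 5892 against 7085.5 and 7626, a difference of -0.34 (1.27-fold lower). The other 3 measured ATPases stayed within 0.1 of 0: PSMC1 had -0.042, PSMC2 0.053 and PSMC4 0.063. PSMC4 had the highest value of the group, with signals of 4737 and 4574.5 against 4375 and 4535.5. The ATPases sit in 1 ring in equal number, while the differences of their transcripts ran from -0.55 to 0.063.

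Of the 9 measured non-ATPase subunits of the cap, 8 had negative differences. By the rule 3 were lower and none higher, against 17.7% and 25.9% of all measured genes. The median was -0.13 (-0.0012 under median scaling). PSMD12 (202352_s_at), a subunit of the lid, read 3653 and 3590.2 against 5252 and 5392, a difference of -0.55 (1.47-fold lower). Its second probe set, 202353_s_at, gave 1225 and 1274 against 2839 and 2690 and a difference of -1.13, the largest in size among all measured probe sets of the members. PSMD1 and PSMD2, the large scaffold subunits of the base that dock ubiquitin receptors and shuttle factors, were also lower. PSMD1 (201199_s_at) read 3067.5 and 2668 against 4003 and 4003, a difference of -0.48. PSMD2 (200830_at) read 4381 and 4140.4 against 5539 and 5254, a difference of -0.34. In all 3 genes the pools did not overlap.

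PSMD11, a lid subunit, lay just outside the limit at -0.26 (1.19-fold lower), with array pairs from -0.42 to -0.095; it met the rule without replica 1 of the knock-down (-0.41) or of the empty vector (-0.26), and was -0.10 without replica 2 of the knock-down. PSMD8 had -0.13, PSMD6 -0.054, the ubiquitin receptor PSMD4 -0.0053 and PSMD3 -0.0012. PSMD14, the deubiquitinase of the lid, was the positive member, with 14796 and 13942 against 12761 and 12697 and a difference of 0.17. Taking the 14 measured subunits of the cap as 1 group, 11 were negative and the median was -0.091. In this group 5 met the rule as lower, against 17.7% of all measured genes. Under median scaling 7 were negative and the median was 0.036. With that scaling 3 met the rule as lower and 1 as higher, against 10.8% and 37.6% of all measured genes. The 13 measured core subunits other than the inducible ones had 8 positive differences and a median of 0.043. By the rule 2 of them were lower and 0 higher, against 17.7% and 25.9% of all measured genes. Under median scaling 4 were negative and the median was 0.17, with 0 lower and 2 higher, against 10.8% and 37.6% of all measured genes. The median of these core subunits was -0.011 under quantile normalization and -0.056 with probe sets averaged. PSMC5, PSMD7, PSMD13 and the thymic subunit PSMB11 were not analysed here.

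Of the 7 assembly factors, 3 were lower by the rule, against 17.7% of all measured genes. PSMD10 (219485_s_at), also known as gankyrin, is a chaperone of the 19S base that binds PSMC4. It read 2760.1 and 2652 against 4034 and 4069.6, a difference of -0.58 (1.49-fold lower) with array pairs from -0.61 to -0.54. PSMD9 had -0.11, and PSMD5, which binds PSMC2, read 1689 and 1592 against 1639 and 1569 and differed by 0.032 with overlapping arrays.

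PSMG3 and PSMG4 form a pair that helps to build the alpha ring, and both were lower. PSMG3 (223363_at) read 1567 and 1570.0 against 2250.1 and 2266, a difference of -0.52 (1.43-fold lower) that varied by less than 0.1 over array pairs (-0.53 to -0.51). PSMG4 (228217_s_at) read 2737 and 2910.3 against 3546 and 3348, a difference of -0.29, and missed the rule when replica 1 was left out of the knock-down (-0.24) or of the empty vector (-0.25). The partners of the other pair, PSMG1 and PSMG2, had overlapping arrays, with -0.041 and 0.010. PSMG2 read 14195 and 13563 against 13541 and 14016.

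No activator or inhibitor met the 1.2-fold rule. PSME3 (209852_x_at), the nuclear PA28-gamma, read 4371 and 3858 against 4609.5 and 5145, a difference of -0.24. It met the rule as lower when replica 1 was left out of the knock-down (-0.33) or of the empty vector (-0.32). PSME4, the PA200 activator, had 0.13, and its other probe sets gave -0.11 and 0.19. PSMF1, the inhibitor PI31, had 0.13. In the naming of this platform the suffix x marks probe sets that can also bind other transcripts, as for PSME3 here, and its other measured probe sets gave -0.035, -0.18 and -0.33.

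**Figure D3:**
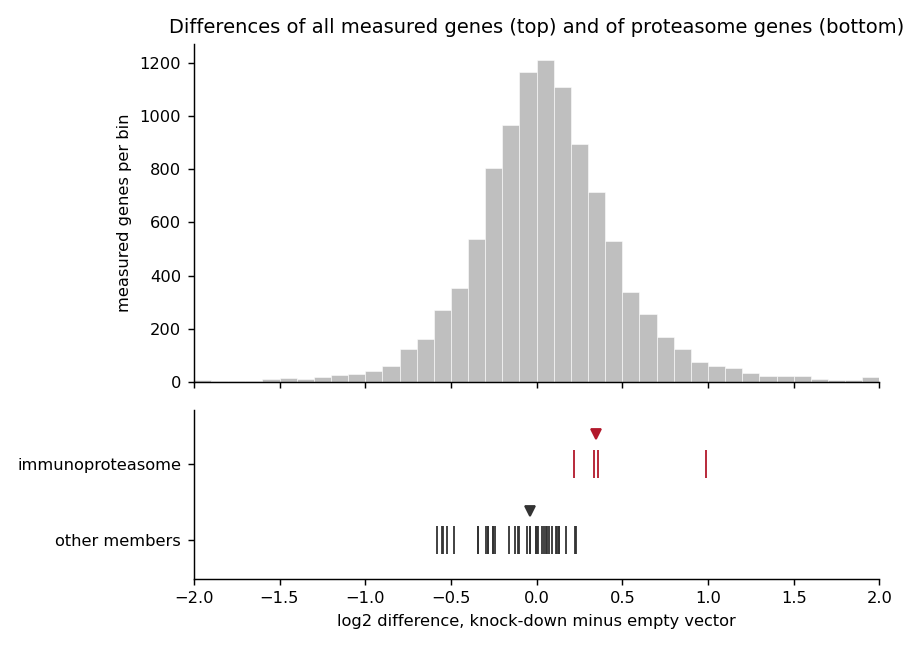
Top, number of measured genes in bins of 0.1 of log2 difference (knock-down minus empty vector), with 15 genes beyond 2 in size drawn in the outer bins; bottom, a tick for each measured member, with triangles at the medians of 0.34 (immunoproteasome) and -0.042 (other members). All 4 immunoproteasome ticks lie above 0.2, and the other members run from -0.58 to 0.23.

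In 34 members the arrays of the pools did not overlap: 16 were higher in the knock-down and 18 lower. The same held for 40.9% of all measured genes as higher and 31.2% as lower, so such separation was common between these pools. All 4 immunoproteasome genes and 12 of the 37 others were among the 16.

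Further probe sets gave a check on the brightest ones. Of 39 further probe sets, 28 reached the brightness limit, in 17 genes, and 21 of these had the sign of the brightest probe set. Of the 13 members that met the 1.2-fold rule, 4 had a further measured probe set, and all 4 of these probe sets had the same sign. They were those of PSMD12 (-1.13), PSMA5 (-0.71), PSMD1 (-0.46) and PSMD10 (-0.28). The brightest probe set understated the others for PSMD11, whose second probe set gave -0.61 from signals of 602.2 and 568.7 against 917.9 and 888. Probe sets disagreed for PSMF1, with 0.14 and 0.052 but also -0.75 on the dimmest, and for PSMB2, where the dimmest of 3 further probe sets gave 0.93. For PSMC2 both further probe sets were negative (-0.13 and -0.31), against 0.053 on the brightest. Opposite signs were also found for PSMA7 (-0.19 against 0.074), a probe set of PSME4 (-0.11 against 0.13) and PSMD4 (0.017 and 0.079 against -0.0053).

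**Figure D4:**
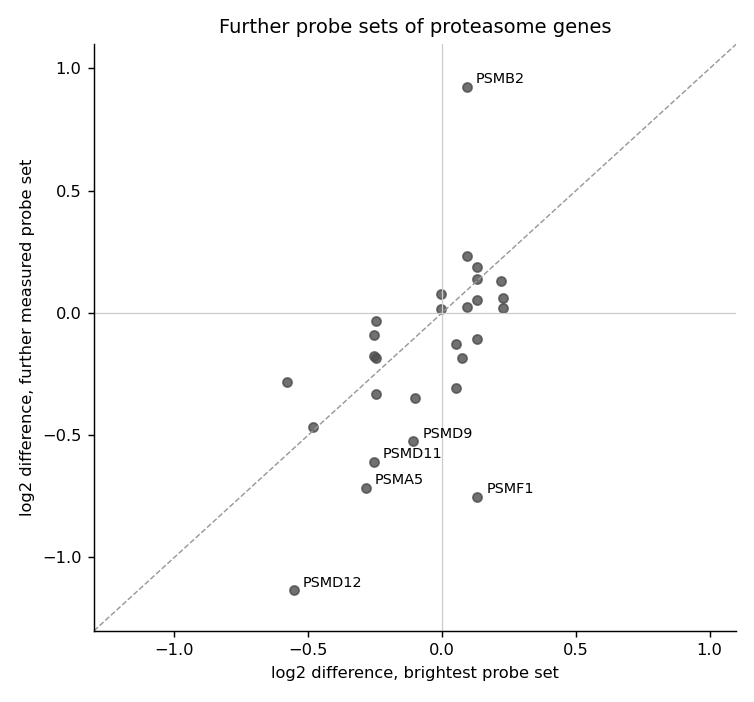
Log2 difference (knock-down minus empty vector) of 28 further measured probe sets against that of the brightest probe set of the same gene, in 17 members; the dashed line marks equal values and genes beyond 0.5 on the vertical axis are named. PSMD12 lies lowest at -1.13, and PSMF1 and PSMB2 are the farthest from the line among genes near 0 on the brightest probe set.

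Other factors of the proteasome were described from a list of genes that are not members. Of 12 measured, 3 were higher and 1 lower by the 1.2-fold rule, against 25.9% and 17.7% of all measured genes. Their median was 0.0072 (-0.14 with probe sets averaged). NFE2L1, the transcription factor that raises proteasome gene expression when proteasome activity falls, read 1747 and 1789 against 1201 and 1144, a difference of 0.59. Its other probe sets gave 0.29 and 0.21. NGLY1, the deglycosylating enzyme that acts on NFE2L1, read 5417 and 5209 against 3849 and 3933 (0.45), but its dim second probe set gave -0.23. The third higher gene, ZFAND5, a ubiquitin-binding activator of the proteasome, had 0.27 and is named to complete the count. USP14, a deubiquitinase of the cap, was lower at -0.37, with 4889 and 4874 against 6290 and 6372, and its other probe sets gave -0.52 and -0.47.

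Of 9 measured ubiquitin and shuttle genes, none was higher and 1, UBQLN4, was lower (-0.26), with a median of 0.11 (-0.018 with probe sets averaged). In a list of interferon-gamma-induced genes of antigen processing, 9 of 11 measured genes were higher and 1 lower. Over all measured genes 25.9% were higher and 17.7% lower, with a median of 0.046. The median of the list was 0.34, which ran from 0.38 to 0.40 with single arrays left out. ERAP1, a peptidase that trims peptides, had 0.66, HLA-C, a classical MHC class I chain, 0.51 and HLA-E, a non-classical one, 0.49. All measured HLA genes of the list were read on probe sets with the suffix x, which can also bind other transcripts. Their differences may therefore not be independent readings. The lower one was TAP1 (202307_s_at), with 707.7 and 632.3 against 853.4 and 811. Its difference was -0.31, with array pairs from -0.42 to -0.19. PSMB9, which starts 488 bases away on the opposite strand, thus differed in the other direction, and its difference exceeded that of TAP1 by 1.29, from 1.23 to 1.36 over array pairs. TAP1 and this comparison were chosen after the values were seen. It rests on 1 probe set for each gene, and under median scaling the TAP1 difference was -0.18.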

How the data were processed

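Total RNA was measured on 4 arrays, 2 for each of 2 pools of 3 extractions, per the labels' protocols and the series design text. The deposited table holds signal intensities per probe set on a linear scale, for which the submitters' processing notes name GCOS without settings. The mean intensity after trimming 2% at each end was 500.07 on every array, so the deposited values share a common scale, which assumes equal total signal in both pools. The few arrays limit the precision.

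Control probe sets (62) were left out. Of the rest, 41091 had 1 gene symbol, 1801 several and 11721 none. All 42 members matched the reference gene table by identifier and symbol. Names with letters after the digits (8) were left out. Pools were compared as 1 sample each, by the size rules of the report, applied with the same fixed limits to every gene. The text names PIR, the immunoproteasome genes and their counterparts, members that met the 1.2-fold rule, and the ends of each role group; from each other list, the up to 3 largest differences that met it. ZFAND5 and TAP1 fall outside and were chosen after their values were seen. The members, lists and rules were chosen with earlier results of these data known. Alternatives were other pseudocounts, brightness limits, scalings, fold limits, probe set averages and pair conditions, and leaving out each array. The code was tested on simulated data. Python 3.11.15, pandas 2.3.3 and numpy 2.4.6 were used.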

Additional observations from a re-analysis of the deposited data

How the results depend on the processing

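The direction of the immunoproteasome median, and of its excess over the other members, held under every alternative run. Without single arrays the counts were 4 higher members, 9 to 11 lower members and 0 to 1 at 2-fold (PSMB9). Of all measured genes 26.6% to 29.2% were then higher and 18.6% to 20.6% lower by the 1.2-fold rule. The median of all members ran from -0.049 to 0.018, the immunoproteasome median from 0.34 to 0.35, that of the other members from -0.076 to -0.0062, and the excess from 0.35 to 0.42. Median scaling gave 7 higher, 5 lower and 1 at 2-fold, and medians of 0.12 (all members, reversed), 0.47 (immunoproteasome) and 0.085 (others, reversed). Under it 37.6% of all measured genes were higher and 10.8% lower by the 1.2-fold rule. Quantile normalization gave -0.081 for the others and an excess of 0.43. Averaging all probe sets gave -0.049 for all members, -0.12 for the others and an excess of 0.46. At a 1.5-fold limit 1 member was higher and 0 lower, against 8.87% and 5.29% of all measured genes. Among role medians that reversed, the constitutive catalytic subunits had -0.011 under quantile normalization and -0.0018 with probe sets averaged (as did the core subunits together, at -0.011 and -0.056), the ATPases 0.085, the cap subunits together 0.036 and the 19S chaperones 0.019 under median scaling, and the activators -0.018, the other proteasome factors -0.14 and the ubiquitin genes -0.018 with probe sets averaged; the other proteasome factors ran from -0.0074 without replica 1 of the knock-down to 0.068 without replica 2 of the empty vector. The causes of these shifts were not tested. The replica numbers did not pair the arrays: deviations of same-numbered arrays correlated at -0.0045 across genes. With the replicate block, which used same-numbered array pairs alone, 3 members were higher and 10 lower, as without it. That setting leaves every pool difference unchanged and only drops some of the sign conditions, so the equal counts cannot show whether arrays were paired.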
